A study of Drosophila melanogaster with 4 samples.

Results

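Long stretches of the autosomes without a peak of L(3)mbt were examined in chromatin of Drosophila melanogaster larvae. A stretch was an interval of 150 kb or longer between the centres of neighbouring L(3)mbt peaks on one of the 4 large autosomal arms, in the authors' list at a false discovery rate of 0.5%. There were 95 such stretches among the 2651 intervals of these arms, and among 3303 intervals on all chromosomes and scaffolds of that list. The positions of the L(3)mbt peaks therefore chose the stretches, and the lack of strong peaks in them is no finding.

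L(3)mbt is the product of lethal (3) malignant brain tumour, a nuclear protein whose MBT repeats can bind methylated lysines of histones. It is a tumour suppressor of the larval brain. In mutant larvae the neuroepithelium of the optic lobe overgrows, and genes normally silent outside the germ line become active. The study linked the protein to insulator elements, which are DNA sites that separate neighbouring regulatory domains.

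Chromatin immunoprecipitation and sequencing (ChIP-seq) was done on a mixture of brain with imaginal discs of wing and haltere and those of the third leg, taken from larvae of the third instar raised at 25 °C. The 4 samples formed 2 groups. The L(3)mbt ChIP group held 1 sample of w1118, a white-eyed stock, and 1 of Canton S, a wild-type stock, both precipitated with a guinea pig antibody to a portion of the protein. The input group held DNA of the same 2 strains with no antibody, and the labels name no mutant and no treatment in either group. The deposited peak lists do not separate the strains, so no spread between samples can be given, and the sequencing depth is unknown. The mixed tissue does not tell which cells a peak, or its lack, comes from. All intervals and p-values count single peaks as independent and reflect counting error alone, not variation between animals or libraries.

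The stretches covered a large part of the autosomes with few intervals. They took up 21.7 of the 95.7 Mb between the outermost peaks of the 4 arms, or 22.7%, and were 3.58% of the intervals. The median stretch measured 199.742 kb, where the median of all autosomal intervals was 18.0 kb. Lengths of 150 to 200 kb were found in 48 stretches, of 200 to 300 kb in 36 and of 300 kb or more in 11. Arm 2L carried 26 stretches, 3R carried 25, 3L carried 24 and 2R carried 20. Their share of the arm's span was 24.3% on 2L, 25.7% on 2R, 23.1% on 3L and 18.8% on 3R. The share was smallest on 3R, which had the most peaks, 796, over the longest span, 27.9 Mb. It was largest on 2R, where 636 peaks lay over the shortest span, 21.1 Mb. Yet the median interval was shortest on 2R, at 15.9 kb, against 17.9 kb on 3R, 18.3 kb on 2L and 20.9 kb on 3L. The share thus did not follow how closely most peaks were spaced.

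**Figure D1:**
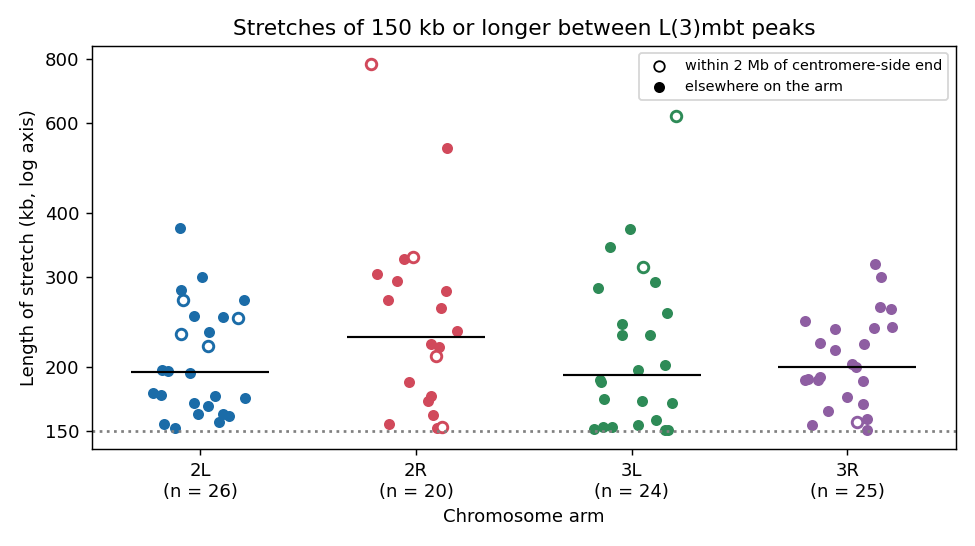
Length in kb (log axis) of each of the 95 stretches by chromosome arm, with the median of the arm as a horizontal line and the 150 kb limit dotted; open points are stretches that reach into the 2 Mb at the centromere-side end. Most points lie below 300 kb, and the longest stretches stand on 2R at 780.495 kb and on 3L at 619.384 kb.

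Positions are given as the centres of the edge peaks, counted from 1 as the 200th base of the peak, as in the deposited lists. The longest stretch lay near the centromere of 2R, from 711908 to 1492403, and the next near that of 3L, from 23088669 to 23708053. Both had edge peaks of low score, 11.1 and 14.4 on 2R and 11.9 and 8.30 on 3L. The score is the authors' signal per peak, read as a mean per base, which starts at 7.5025 in this list. The next in length, 537 kb on 2R from 15614888 to 16151412, lay far from the centromere between peaks with scores of 28.6 and 9.14.

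The other 7 of the 10 longest stretches measured 313 to 373 kb. On 2L, the stretch from 16887854 to 17260814 measured 373 kb. On 2R there were 328 kb from 75731 to 404057 and 325 kb from 2057093 to 2381892. Arm 3L had 373 kb from 5132576 to 5505267, 343 kb from 13495763 to 13838576 and 313 kb from 23708053 to 24021539. The longest on 3R, from 6719308 to 7036471, measured 317 kb. Every arm thus held at least 1 of the 10 longest, and 2R and 3L held 4 each.

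Around the limit of 150 kb the lengths ran on without a break. Just inside it lay stretches of 150.296 kb on 3L from 1352383, 150.342 kb on 3L from 3616560 and 150.425 kb on 3R from 22392698. Just outside it were intervals of 148.788 kb from 19587191, 148.544 kb from 4197335 and 147.916 kb from 8741093, all on 2L. The limit does not mark a gap in the distribution.

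Some stretches adjoined each other. In 5 cases, 2 neighbouring stretches were parted by a single shared L(3)mbt peak, so the 95 stretches had 185 different edge peaks. On 2R, the peak centred at 711908, with a score of 11.1, parted stretches that together spanned 933 kb. On 3L, the peak centred at 23708053, with a score of 8.30, also stood in the middle of 933 kb. The shared peak at 18453604 on 3L was strong, with a score of 146.1, and stood alone in 451 kb. The remaining shared peaks lay at 14858728 on 2R and 22260557 on 3L, with scores of 10.4 and 12.8.

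The 2 Mb at the centromere-side end of the arms were touched by 11 stretches, 4 each on 2L and 2R, 2 on 3L and 1 on 3R. These 11 had a median length of 250 kb (249.714 kb), against 195 kb for the other 84. The zone itself held 14.5 L(3)mbt peaks per Mb on 2L, 10 on 2R and 8.5 on 3L, but 34.5 on 3R. Input peaks in the zone numbered 214 per Mb on 3L and 253.5 on 2R, 336.5 on 2L and 524 on 3R. The end of 3R was thus well supplied with peaks of both kinds. Fewer input peaks and fewer L(3)mbt peaks went together at the ends of the other arms, and the part that read coverage has in this was not tested.

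Weak ChIP signal was thinner inside the stretches than outside, although it was not absent. The authors' unfiltered ChIP list, made of 270 bp calls with a height of at least 5, had 1259 of its 14809 autosomal calls inside stretches. Of these 1259 calls, 93 overlapped an edge peak and 1166 lay apart from any 0.5% peak. The latter, called residual calls here, came to 53.7 per Mb inside the stretches and 142.4 per Mb in the rest of the arms, a ratio of 0.376 (95% exact interval 0.353 to 0.399). On single arms the ratio ran from 0.360 on 3R to 0.396 on 2R. In 94 of the 95 stretches the density of residual calls was below that of the rest of the arm. The rest includes the ground next to its peaks, where residual calls were dense. No such count was made for shorter intervals, so it is not known whether this is particular to the stretches. The stretches were chosen on the same ChIP signal, so these values are a description and were not tested.

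A stretch held between 0 and 44 residual calls, with a median of 10. The richest stretch in residual calls per length had 188.8 per Mb. At the other end, 2 stretches held 0, on 2L from 1732478 to 1884487 and on 3R from 23911944 to 24127874, both picked out after their values were seen. In the stretch on 3R, no call of the unfiltered list was centred over a run of 215924 bp. A run of at least 100 kb without any call of that list occurred in 29 stretches, and the longest such run measured 241478 bp, on 3L within the stretch from 23088669 to 23708053.

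Residual calls gathered next to the edge peaks. Within 1 kb of an edge centre their density was 358 per Mb (exact Poisson 95% interval 278 to 454), and it was 94.7 per Mb at 5 to 10 kb (76.2 to 116.4). Beyond 75 kb from either edge it was 33.5 per Mb (29.5 to 37.9). Shorter intervals, of 50 to 150 kb, had much the same density close to their edges, 377 per Mb within 1 kb (339 to 417). Further in, at 20 to 50 kb from an edge, stretches held 56.5 residual calls per Mb (50.5 to 63.0) and shorter intervals 72.7 (68.9 to 76.7). With the 11 stretches near the centromere left out, the value at 20 to 50 kb was 57.9. At that distance from an edge the stretches were thus the sparser of the classes, which is again a description of the signal that chose them. Input peaks at 20 to 50 kb were also sparser in the stretches, at 404 per Mb (387 to 420) against 440 (430 to 449) in the shorter intervals. With the 11 stretches left out, that input value was 423 (406 to 442).

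**Figure D2:**
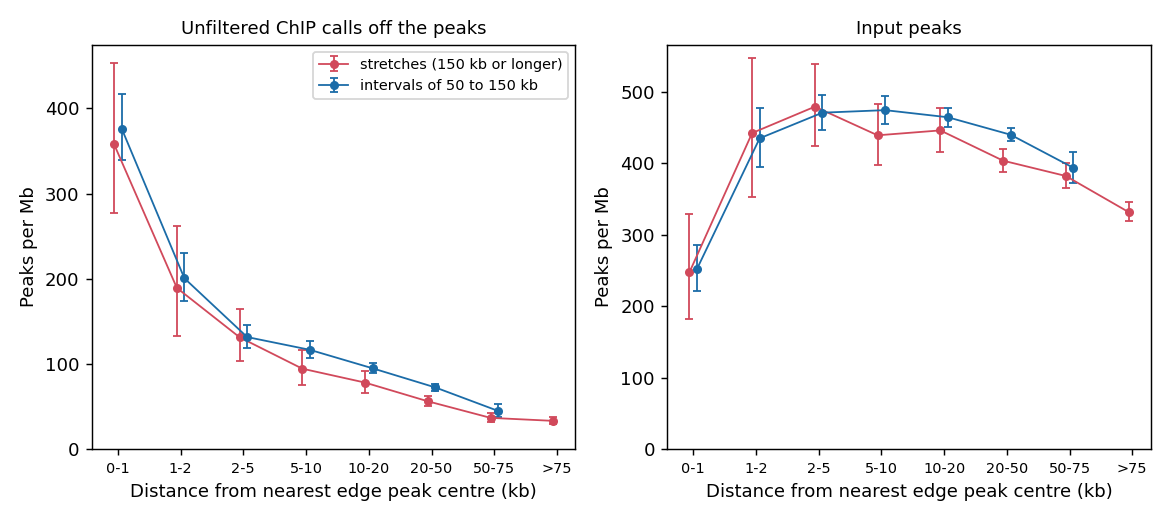
Density (per Mb) of unfiltered ChIP calls that overlap no 0.5% peak (left) and of input peaks (right) against distance in kb from the nearest edge peak centre, for the 95 stretches and for 498 intervals of 50 to 150 kb; bars are exact Poisson 95% intervals. ChIP calls decline from 358 per Mb within 1 kb to 33.5 per Mb beyond 75 kb in the stretches. Input peaks, pooled over each class, are scarce within 1 kb and sparser again far from the edges in both classes.

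Residual calls of the stretches were low. Their median height was 6.34 (95% interval 6.20 to 6.47, n = 1166), against 6.45 (6.40 to 6.5, n = 10530) in the rest of the arms. A height of 10 or more was reached by 150 of them, or 12.9% (exact interval 10.995 to 14.9%), and by 16.1% of those in the rest (15.4 to 16.8%). A height of 20 or more was reached by 6, or 0.515% (0.189 to 1.12%), against 1.07% (0.885 to 1.29%). In 33 stretches no residual call reached 10. For scale, calls that overlapped a 0.5% peak on these arms had a median height of 30.9.

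The 6 highest residual calls of the stretches lay 373 to 81421 bp from the nearest L(3)mbt peak centre. All had a height of 20 or more. Of them, 3 lay within 2 kb of an edge peak. In the rest of the arms, 73 of 113 residual calls of that height (64.6%) lay within 2 kb of a peak centre. Such nearness was thus not particular to the stretches. The highest in the stretches, on 3L from 4840656 to 4840925 with a height of 79.1, was 448 bp from the edge centre of its stretch. Those on 3R from 24370425 to 24370694, with a height of 39.9, and from 18879156 to 18879425, with a height of 29.1, were 373 and 574 bp away. The other 3 in the stretches lay deeper.

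The call on 2R from 6533015 to 6533284 had a height of 43.6, above 63.1% of the calls that overlap a 0.5% peak. Yet its centre was 81421 bp from the nearest 0.5% centre and 5321 bp from the nearest centre of the 3% list, so that it entered neither filtered list. The nearest input peak was centred 1497 bp away. It stood in the stretch from 6451728 to 6627398, whose edge peaks scored 62.7 and 60.1. Of the remaining 2, that on 3L from 5149053 to 5149322, with a height of 20.6, lay 16611 bp inside its stretch. The last, on 2L from 21624029 to 21624298 with a height of 20.8, was centred 4 bp from a peak of the 3% list.

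The list at a rate of 3% adds weaker L(3)mbt peaks to those at 0.5%. Of its 1003 added peaks on the 4 arms, 90 lay in the stretches, or 4.15 per Mb against 12.3 per Mb in the rest, a ratio of 0.335 (exact interval 0.267 to 0.417), given as a description because the ChIP signal chose the stretches. Their median score was 6.25 (6.12 to 6.46), against 6.35 (6.28 to 6.42) for the added peaks of the rest. No added peak lay in 47 stretches, 1 lay in 26, 2 to 4 lay in 20 and 8 lay in each of 2. The stretches with 8 were the longest on 2R, from 711908, and the one from 15614888. A stretch of 161 kb on 2L from 8528553 to 8690050 held 4. A run of at least 150 kb free of 3% peaks too was left in 79 of the 95 stretches.

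The rule that chose the stretches did not name the input peaks. Whether the authors used input DNA to filter the L(3)mbt peaks is not stated, so tests on input peaks are not known to be independent of that choice. The lists were linked at short range. Within 1 kb of edge centres, input density was 247 per Mb (182 to 329), against 442 at 1 to 2 kb (353 to 547). Over the 4 arms, stretches carried fewer input peaks than the rest of their arms. They held 8257 input peaks, or 380 per Mb (380.4), against 33563, or 454 per Mb. The ratio was 0.839 (95% exact interval 0.819 to 0.859, two-sided exact binomial test combined over the 4 arms, p = 8.2e-48). Input counts varied more than by counting error, with a dispersion of 2.87 over 1962 windows of up to 50 kb. A quasi-Poisson fit that allows for this gave 0.838 (95% interval 0.804 to 0.873), and it still treats neighbouring windows as independent. With 1000 bp around 0.5% centres left out, the ratio from the exact binomial distributions was 0.814 (0.794 to 0.834). Without the centromere-side 2 Mb as well, a setting chosen after seeing the data, it was 0.882 (0.860 to 0.905).

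Each arm on its own gave a ratio below 1. It was 0.883 on 2L (0.842 to 0.926), 0.775 on 2R (0.737 to 0.815), 0.859 on 3L (0.818 to 0.901) and 0.838 on 3R (0.798 to 0.879), and the 4 exact binomial tests passed, with the highest adjusted p at 2.4e-07 on 2L. The tests by arm do not allow for the dispersion of 2.87, and no quasi-Poisson fit was made for single arms. Leaving out the 2 Mb at the centromere-side end brought the ratio closer to 1 on 2L, 2R and 3L. It was then 0.970 on 2L (0.922 to 1.02) and 0.975 on 3L (0.927 to 1.02), and neither passed the exact binomial test (adjusted p = 0.31 for both). On 2R it was 0.869 and on 3R, where it changed little, 0.829, and both still passed (exact binomial tests, adjusted p = 5.2e-07 and 7.9e-14). The 2R value keeps the stretch from 2057093 to 2381892, which begins just beyond the 2 Mb. That stretch held 194 input peaks per Mb, at 0.440 times the density of the remaining arm. How much of the 2R ratio rests on it was not tested. Over the 4 arms without those ends the ratio was 0.908 (0.885 to 0.931, exact binomial test, p = 3.9e-14; quasi-Poisson fit p = 2.4e-06).

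Single stretches differed widely, from 67.0 to 735 input peaks per Mb, with quartiles at 311 and 490. Density was below that of the remaining arm in 57 of the 95 stretches (60%), and in 231 of the 498 intervals of 50 to 150 kb (46.4%). An exact binomial test of each interval of 50 kb or longer, with adjustment over all 593, called 24 stretches low. That is 25.3% of the stretches, where 9.27% of the 593 intervals and 6.22% of the shorter ones were called low. It called 9 stretches high, or 9.47%, where 7.76% of the 593 and 7.43% of the shorter ones were high. Longer intervals hold more peaks and pass the test at smaller differences, and how much of the higher share of low calls goes with length was not tested. The tests of single intervals also do not allow for the dispersion of 2.87, so both low and high calls may be too many.

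**Figure D3:**
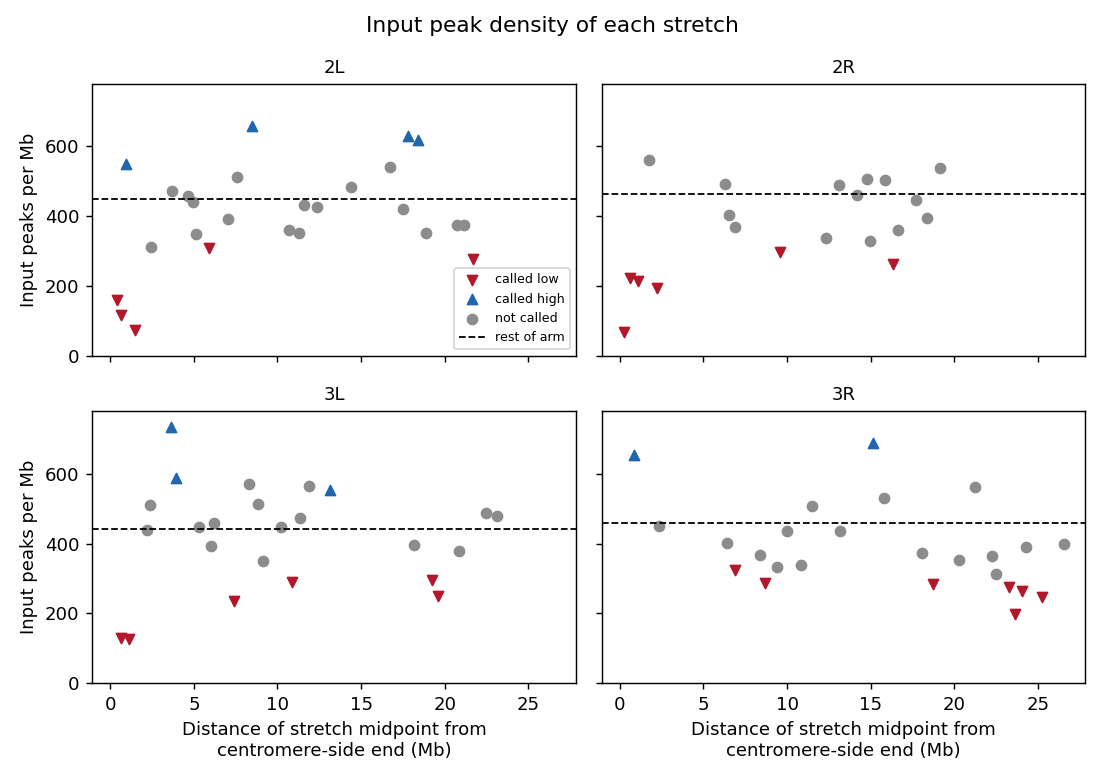
Input peaks per Mb in each of the 95 stretches against the distance in Mb of its midpoint from the centromere-side end of the arm, one panel per arm; the dashed line is the rest of the arm and triangles are stretches called low (24) or high (9) by the exact binomial test. Of the low calls, 8 are stretches that touch the centromere-side 2 Mb, all on 2L, 2R and 3L, and 16 are spread over the rest of the 4 arms.

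The lowest input densities were near centromeres. On 2R, the stretch from 75731 to 404057 held 22 input peaks, or 67.0 per Mb, at 0.151 times the density of the remaining arm (exact binomial test, adjusted p = 3.7e-34). On 2L, the stretch from 21397442 to 21629333 held 17, or 73.3 per Mb, and that from 22179781 to 22429495 held 29, or 116 per Mb. Of the 11 stretches that touch the centromere-side 2 Mb, 8 were called low and 2 high by the exact test. Among the other 84, 16 were called low and 7 high. In the stretch on 2L from 21397442, a run of 173606 bp had no input peak, and on 2R a run of 205069 bp had none in the stretch from 2057093 to 2381892. There the lack of L(3)mbt peaks went with a lack of input peaks, and what share of these bases could be read was not tested.

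Other stretches were rich in input peaks. The densest, on 3L from 20834720 to 21007623, held 127 input peaks, or 735 per Mb, which was 1.72 times the remaining arm (exact binomial test, adjusted p = 1.1e-06). On 3R, the stretch from 15064856 to 15229160 held 113, or 688 per Mb. On 2L, that from 14355125 to 14589073 held 154, or 658 per Mb, beside an edge peak with a score of 247.8. The 537 kb stretch on 2R from 15614888 held 270 input peaks, or 503 per Mb, at 1.16 times the remaining arm, and was not called (exact binomial test, adjusted p = 0.096). In such stretches input DNA was listed as often as elsewhere or more often, while L(3)mbt peaks were missing by the rule.

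Pooled over the stretches, input density also differed with distance from the nearest edge. It was 446 per Mb at 10 to 20 kb (416 to 477) and 332 per Mb beyond 75 kb (319 to 345). With the 11 stretches near the centromere left out, these values were 467 and 381. Longer stretches weigh more in the ground beyond 75 kb. Changes within a stretch and differences between stretches therefore cannot be told apart here. Input density beyond 75 kb was lower than at 10 to 20 kb also away from the centromere, by exact Poisson intervals that cover counting error alone. The decline was not particular to the stretches. Intervals of 50 to 150 kb had 464 input peaks per Mb at 10 to 20 kb (451 to 478) and 394 at 50 to 75 kb (372 to 416). At 50 to 75 kb the stretches had 382 (365 to 400). Within 1 kb of an edge, input density of the stretches was lower still, at 226 per Mb away from the centromere (160 to 310).

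Input peaks in the stretches were also slightly lower in height. The median was 5.60 (95% interval 5.59 to 5.63) inside and 5.66 (5.64 to 5.67) in the rest. A height of 7 or more was reached by 882 of 8257, or 10.7% (exact interval 10.02 to 11.4%), and by 12.1% in the rest (11.8 to 12.5%). These heights were not tested. Across the 95 stretches, Spearman's rho between length and input density was -0.25, and -0.16 over the 84 away from the centromere. Between the densities of residual ChIP calls and input peaks it was 0.41, and 0.30 over the 84. Stretches share their libraries and differ in position, so these values are descriptions.

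Pooled over the 4 arms, the peaks at the edges of stretches spanned the whole range of scores, with a heavier upper part than the other peaks. Their median score was 16.2 (95% interval 14.4 to 22.1, n = 185), against 15.7 (15.2 to 16.6) for the other 2470 peaks of the 4 arms. Scores of 50 or more were found in 51 edge peaks, or 27.6% (exact interval 21.3 to 34.6%), and in 18.3% of the others (16.8 to 19.9%). Scores of 100 or more were found in 27, or 14.6% (9.84 to 20.5%), against 7.61% (6.60 to 8.73%). At the low end they were alike in share, with 23.2% of edge peaks and 23.6% of the others below 10. Scores belong to the same ChIP signal that placed the edges, so they were not tested.

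Edge peaks of intervals of 100 to 150 kb that border no stretch stood between in the share at 50 or more, with 22.5% (17.5 to 28.2%, n = 253). That interval holds the shares of both other groups. At 100 or more their share was 8.70% (5.53 to 12.9%), near that of the other peaks. Their median score of 17.7 (14.8 to 19.8) was above both. By arm, the median edge score was 14.8 on 2L, 15.2 on 2R, 20.4 on 3L and 27.8 on 3R, beside 16.3, 14.4, 15.5 and 17.1 for the other peaks. The upper part was thus fullest on 3R, and on 2L the edge median was the lower one.

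**Figure D4:**
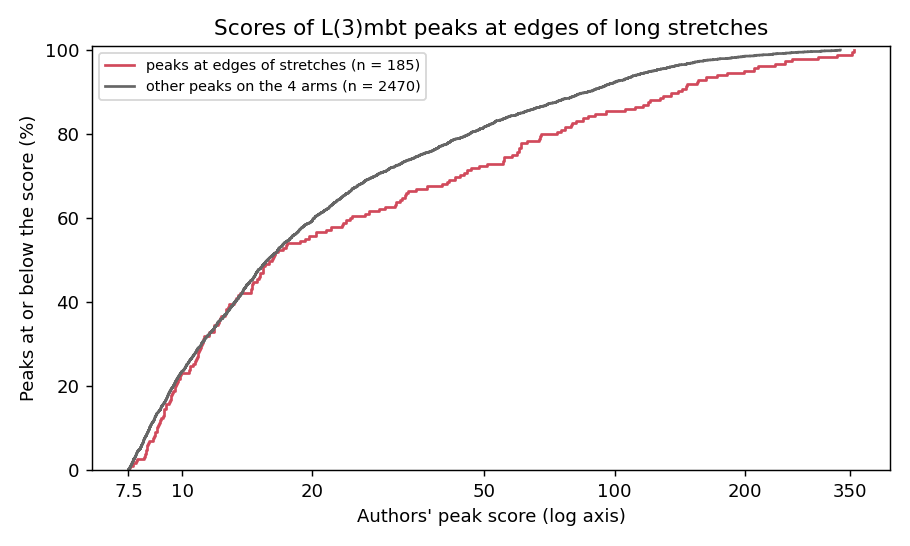
Cumulative share (%) of L(3)mbt peaks at or below a given authors' score (log axis) for 185 peaks at the edges of stretches and 2470 other peaks, pooled over the 4 arms. The curves run together up to about the median and part above it, with 27.6% of edge peaks and 18.3% of the others at 50 or more.

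The stretches with the highest edge scores lay on 3R. The highest score of the deposited list, 358.7 at the centre 10921616 on 3R, closed a stretch that began at 10730073. That stretch held 3 residual calls, with a greatest height of 8.62, and 65 input peaks. On 3R from 796679 to 952815 both edges were strong, with scores of 354.7 and 214.8. This stretch held 13 residual calls and 102 input peaks, or 653 per Mb, and was called high in input density (exact binomial test, adjusted p = 0.0043). From 6262932 to 6501047 on 3R the edges scored 86.8 and 327.9, and 0 peaks of the 3% list lay between them. Both edges reached 50 in 11 stretches, 1 edge did in 30, and both were below 20 in 31. Between these lay the other 23 stretches. Pairs of edges were not counted for shorter intervals, so it is not known whether these numbers are particular to the stretches.

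The genes within the stretches were not analysed here, because the gene table used was for genome release 6, and the chromosome names of the lists, with Het and Uextra scaffolds, are those of an earlier release. No sequence is printed for the same reason.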

How the data were processed

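Peak lists were analysed for L(3)mbt ChIP and input DNA, 2 samples each. Reads were aligned with Bowtie, per the submitters' processing notes, which give no version. Each peak in the deposited lists has 1 signal value from the authors' caller, pypeak by the lists' names. Not given in the sources used here are its settings, the genome build and any pooling of strains. The rates of 0.5% and 3% are read from how the authors named the lists. In these, signal times width was whole for 100% of peaks within 0.01, so it was read as a mean per base. In the unfiltered lists it is called height. Its scaling is not stated, and no value was compared between lists. Whether the input list was called on input alone is not stated. Columns of values from other samples numbered 0, and the depth per sample is unknown.

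A peak belonged to a stretch when its centre lay inside. The rest of an arm was the span between its outermost 0.5% centres without the stretches. Ratios of density, their intervals and p-values came from exact binomial distributions combined over arms. Medians have order-statistic 95% intervals. Calls used an adjusted p of 0.05 (Benjamini-Hochberg, over 4 arms or 593 intervals). The centromere-side end is the end of the arm as listed. The stretches, lists and tests were chosen with earlier results of these data known. Stretches are named by rank in length, input density, residual calls, 3% peaks, edge score and nearness to the limit.

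The tests were tested on simulated data. With a planted ratio of 0.9, 20 of 20 simulations were called, and 17 of 20 intervals held it. With a ratio of 1, 1 of 20 was called. Of 100 intervals planted at 0.5 times, 80 were called, of 100 at 2 times 95, and of 393 unchanged ones 6. Peaks were placed independently there, without the dispersion of the real input counts, so these rates need not hold for the data. Software was statsmodels 0.14.6, scipy 1.17.1, numpy 2.4.6, matplotlib 3.10.9 and pandas 2.3.3 under Python 3.11.15.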

Additional observations from a re-analysis of the deposited data

How the results depend on the processing

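The 12 results were recomputed 70 times under other settings. In 60 cases the call or size stayed as before, and the direction changed in 0. The input density ratio over the 4 arms stayed below 1 and called in its 15 alternatives, from 0.771 (stretches of 200 kb or longer) to 0.908 (without the centromere-side 2 Mb). Without that 2 Mb, the input ratio was 0.970 on 2L and 0.975 on 3L and no longer called. By construction, 233 stretches were found at 100 kb or longer and 47 at 200 kb or longer. The ratio of residual ChIP calls was 0.402 without the centromere-side 2 Mb, 0.416 with 1000 bp around 0.5% centres left out, 0.301 for heights of 10 or more and 0.287 for stretches set by the 3% list. It was 0.484 with 5000 bp left out, an alternative chosen after seeing the data, as were the quasi-Poisson fit without the centromere-side ends and the joint removal of those ends and 1000 bp. With stretches set by the 3% list, whose edges include its weaker peaks, the median edge score was 12.6. No paired analysis was possible because the deposited lists hold no value per sample, and for the same reason no sample could be left out. The number of peaks limits the precision.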

Other observations

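The X chromosome, outside the 4 autosomal arms, had 25 intervals of 150 kb or longer among 608, which took up 23.7% of the span between its outermost L(3)mbt peaks. Their median length was 183 kb. The longest, from 21503968 to 21845095, measured 341 kb and held 2 input peaks. Input peaks were listed at 111 per Mb in these intervals and at 162 per Mb in the rest of X, a ratio of 0.685 (exact interval 0.626 to 0.749, two-sided exact binomial test, p = 5.3e-18). Residual ChIP calls were at 51.4 and 142.5 per Mb, a ratio of 0.361 (0.317 to 0.409). Whether these ratios differ from those of the autosomal arms was not tested.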
